A study of Homo sapiens with 16 samples.

Results

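FOXA, GATA and TFAP2 proteins are the lineage factors of hormone-responsive epithelia, and 10 genes were followed here: FOXA1, FOXA2, GATA2, GATA3, GATA4, GATA6, TFAP2A and TFAP2C, with SOX17 and PAX8, which mark epithelium of Müllerian origin. The members were chosen by name, as the rows of these 10 genes among the 26364 genes of the count tables. They and the other gene lists used below were chosen with earlier results of these data known. Counts of calls set beside the share of all genes are therefore descriptions. Poly(A) RNA was sequenced from Ishikawa cells, a human line from an endometrial adenocarcinoma, and T-47D cells, a human line from a breast ductal carcinoma. Each line was kept in hormone-depleted medium and then received 10 nM 17β-estradiol (E2) for 2, 4 or 8 h, and the 0 h libraries of each line, from vehicle-treated cells, are the reference. There were 2 replicates for each of the 8 groups, 16 libraries in all, and each tissue is represented by 1 cell line. Nothing in the labels or methods says that replicates were separate cultures, so the p-values measure the spread between these libraries, which may be technical.

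FOXA1 is a pioneer factor that opens chromatin at many sites bound by estrogen receptor alpha, and FOXA2 is its paralog in uterine glands, liver and lung. GATA factors bind DNA through zinc fingers. GATA3 maintains luminal identity in the breast, GATA2 acts with the progesterone receptor in the uterus, and GATA4 and GATA6 are best known from heart, gut and gonad. TFAP2A and TFAP2C (AP-2 alpha and gamma) bind GC-rich sites in epithelial, neural crest and placental cells and occupy many estrogen receptor sites in breast cells. SOX17 is a factor of endoderm and of uterine epithelium, and PAX8 is a paired-box factor of thyroid, kidney and Müllerian epithelium.

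The promoters of FOXA1, TFAP2A and PAX8 are shown because declines of these genes are described further on. Those of FOXA1 and TFAP2A were in T-47D cells and that of PAX8 in Ishikawa cells. GATA3 and GATA6 also declined in T-47D cells, and their windows are not printed. Each is the 250 bases before a RefSeq start site (GRCh38.p14), 5′ to 3′ on the gene's strand. The FOXA1 stretch is chr14:37595250-37595499 (minus strand), that of TFAP2A is chr6:10419660-10419909 (minus strand) and that of PAX8 is chr2:113278922-113279171 (minus strand). Capitals mark matches to the motifs searched.
FOXA1: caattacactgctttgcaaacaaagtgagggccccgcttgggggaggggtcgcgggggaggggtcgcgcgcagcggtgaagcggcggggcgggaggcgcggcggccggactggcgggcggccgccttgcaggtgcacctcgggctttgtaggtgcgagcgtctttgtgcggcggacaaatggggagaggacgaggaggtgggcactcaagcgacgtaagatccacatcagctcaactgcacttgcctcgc
TFAP2A: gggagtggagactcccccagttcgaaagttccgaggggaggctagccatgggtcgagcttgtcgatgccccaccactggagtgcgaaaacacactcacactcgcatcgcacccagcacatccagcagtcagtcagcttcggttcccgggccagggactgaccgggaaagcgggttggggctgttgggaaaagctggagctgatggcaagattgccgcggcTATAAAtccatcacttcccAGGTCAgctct
PAX8: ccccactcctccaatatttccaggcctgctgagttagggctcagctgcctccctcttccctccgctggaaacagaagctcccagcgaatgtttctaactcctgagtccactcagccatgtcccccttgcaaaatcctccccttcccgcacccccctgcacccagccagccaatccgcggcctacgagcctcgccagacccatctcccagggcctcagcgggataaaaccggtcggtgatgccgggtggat
TFAP2A has a second RefSeq window, chr6:10412392-10412641, which held no match and is not printed. The TFAP2A window shown held a TATA box (TATAAA) starting 30 bases and the sequence AGGTCA, a single arm of the estrogen response element, starting 11 bases before the start site, and the FOXA1 and PAX8 windows held no match to any motif searched. Both strands were searched for the palindromic estrogen response element, its arm AGGTCA, the sequence TGTTTAC bound by forkhead factors, AGATAA as the zinc-finger site of GATA factors, GCCNNNGGC as the AP-2 site, and TATAAA. The palindromic element overlaps its arm. The arm was in 12.1%, TGTTTAC in 2.98%, AGATAA in 9.17%, GCCNNNGGC in 19.8% and TATAAA in 10.7% of the 35116 promoter windows of the same length, and the palindromic element was in 0.0399%. RefSeq windows matched 6 of the 10 members, with no entry for FOXA2, GATA4, TFAP2C and SOX17. The arm was also found in 1 window of GATA2, starting 240 bases before the start site. GCCNNNGGC was in both GATA2 windows and in some GATA3 windows, and TATAAA was in 1 GATA3 window. The GATA6 window held no match. A letter match is a description and not a bound site.

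Libraries held 41177912 to 58918642 counts in Ishikawa cells and 41223813 to 64148903 in T-47D cells. Among counts from 1 to 10, 71.9% to 73.9% were even in Ishikawa libraries and 71.2% to 74.6% in T-47D libraries, so a count need not be 1 fragment, and the counting intervals given for low genes cover counting error only and may be too narrow. The epithelial markers EPCAM, CDH1, KRT8, KRT18 and KRT19 were high in both lines, with summed levels at 0 h of 2867 to 2886 CPM (counts scaled to library size) in Ishikawa and 9917 to 10382 CPM in T-47D cells. Of the breast luminal markers, PIP was at 0 in all Ishikawa libraries and at 6625 to 11463 counts in T-47D cells at 0 h, while SCGB2A2 and ANKRD30A had at most 4 counts in any library. The endothelial marker PECAM1 and the immune marker CD3E had at most 2 counts in every Ishikawa library, while VWF, another endothelial marker, reached 434 counts there. Before the results of Ishikawa cells are given, a feature of those libraries must be stated: the 4 h and 8 h libraries were not separated by their labels. By edgeR, 8 h differed from 4 h in 2 genes (0.0127% of those tested, with 554 genes at an unadjusted p under 0.05), beside 3.42% in T-47D cells. The root mean square log2 difference over genes was 0.39 between both 4 h replicates and 0.353 between both 8 h replicates. It was 0.33 between replicate 2 after 4 h and replicate 1 after 8 h. Such distances were not particular to these libraries. Ishikawa replicate 2 after 2 h and replicate 1 after 8 h were at 0.345. T-47D replicate 1 after 2 h and replicate 1 after 4 h were at 0.327, beside 0.337 between both T-47D 2 h replicates. Ishikawa changes after 4 h and 8 h are therefore also given with these 4 libraries as 1 group.

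Without E2, the lines differed widely in the levels of most lineage factors, although 5 members (FOXA1, GATA2, GATA6, TFAP2A and TFAP2C) passed the filter on low counts in both. T-47D cells were high in GATA3, FOXA1, TFAP2C and TFAP2A, and Ishikawa cells in PAX8 and SOX17. Levels were compared between genes as RPKM, the CPM per 1000 bases of merged exons. In T-47D cells GATA3 stood at 357 ± 6.77 RPKM (SD, n = 2), followed by FOXA1 at 95.4 ± 3.28, TFAP2C at 28.7 ± 0.375, TFAP2A at 26.6 ± 0.774, GATA2 at 5.91 ± 0.735 and GATA6 at 3.05 ± 0.00680. No 2 neighbours in this order had overlapping replicates, but the order of TFAP2C and TFAP2A rests on the exon length used, since TFAP2A had the higher level not divided by length (219 ± 6.36 against 86.2 ± 1.13 CPM). In Ishikawa cells PAX8 stood at 40.0 ± 4.68 RPKM, followed by SOX17 at 18.4 ± 0.437, GATA2 at 3.81 ± 0.189, FOXA1 at 2.57 ± 0.0270, TFAP2C at 1.74 ± 0.187, TFAP2A at 0.759 ± 0.0118 and GATA6 at 0.223 ± 0.0814, again with no overlap between neighbours. Here too the order of TFAP2C and TFAP2A rests on exon length, since TFAP2A was higher in CPM (6.24 ± 0.0967 against 5.22 ± 0.561). Ranked by CPM at 0 h among the genes kept for testing in each line, GATA3 lay at percentile 99.6 and FOXA1 at 97.8 in T-47D cells, and PAX8 at percentile 96.7 and FOXA1 at 39.1 in Ishikawa cells.

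**Figure D1:**
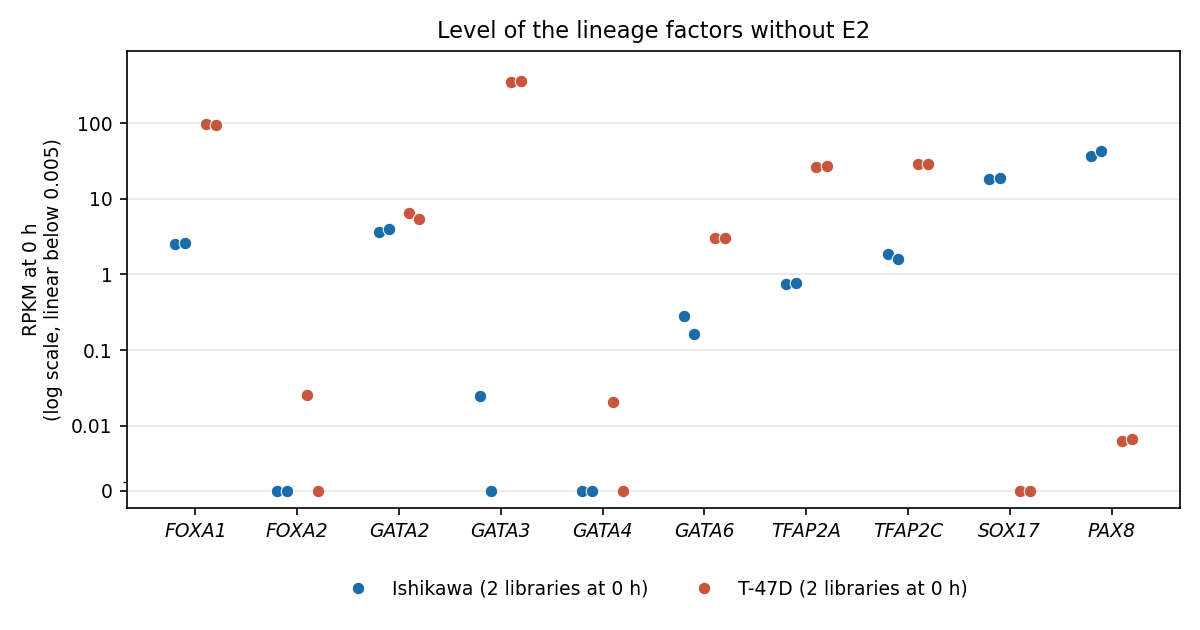
RPKM (vertical axis, log scale, linear below 0.005) of the 10 lineage factors in the 2 libraries of each line at 0 h. GATA3, FOXA1, TFAP2A and TFAP2C lie higher in T-47D cells, PAX8 and SOX17 in Ishikawa cells, and GATA2 is the member with the closest levels in both lines.

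GATA3 had 51780 and 49636 counts in T-47D cells at 0 h and 4 and 0 counts in Ishikawa cells, a ratio of 28726 after scaling for library size (95% counting interval 11219 to 105432). FOXA1 was at 431 and 411 CPM in T-47D cells and at 11.2 and 11.4 CPM in Ishikawa cells, 37.2-fold higher in T-47D (log2 difference 5.22, SE 0.07, adjusted p = 5.40e-23). TFAP2A was 35.1-fold higher in T-47D cells (log2 difference 5.13, SE 0.07, adjusted p = 1.50e-22). TFAP2C was 16.5-fold higher (4.05, SE 0.12, adjusted p = 1.96e-17) and GATA6 was 13.7-fold higher (3.77, SE 0.20, adjusted p = 4.42e-13). GATA2 came closest to parity, at 31.6 and 26.5 CPM in T-47D against 18.1 and 19.4 CPM in Ishikawa cells, 1.55-fold higher in T-47D (0.63, SE 0.09, adjusted p = 1.06e-06).

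The Müllerian factors went the other way. PAX8 had 12691 and 15267 counts in Ishikawa cells at 0 h and 2 and 2 in T-47D cells, a ratio of 6169 (95% counting interval 2409 to 22643). SOX17 had 1998 and 2105 counts in Ishikawa cells and 0 in each T-47D library, at least 603-fold higher in Ishikawa cells against a floor of 3 counts per library. FOXA2 and GATA4 had at most 4 counts in any 0 h library of either line, at or near that floor, and no fold is given for them. In all, 8 of the 9 members tested between the lines at 0 h were called at an adjusted p under 0.05, 6 higher and 2 lower in T-47D cells. Of all genes tested 81.9% were called, 39.5% higher and 42.4% lower, so a call alone says little here. By fitted log2 difference over 17090 genes, GATA3 ranked 9th from the top. FOXA1 ranked 759th, TFAP2A 773rd, TFAP2C 1006th, GATA6 1091st and GATA2 5257th. SOX17 ranked 24th and PAX8 74th from the bottom. GATA3, SOX17 and PAX8 passed the filter only through the line where they are high, so their extreme ranks add no support. Fitted values of genes near 0 also depend on the prior count.

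Other factors of the same tissues divided in the same comparison. Of 16 luminal epithelial factors, 13 were higher and 3 lower in T-47D cells at 0 h. The 4 with the largest differences were TBX3, at 661 to 721 counts against 0 in Ishikawa cells, SPDEF at 12798 to 14214 against 2 to 4 counts, ELF5 at 5872 to 6265 against 3 to 4 counts, and the progesterone receptor gene PGR at 658 ± 4.33 against 1.15 ± 0.272 CPM. ESR1, which encodes estrogen receptor alpha itself, was lower in T-47D cells by a log2 difference of -0.48 (adjusted p = 1.36e-08), and so were KLF5 (-3.83) and ELF3 (-0.49), the only other factors of the list that were lower there. Of 11 uterine patterning factors, 8 were lower and 3 higher in T-47D cells. EMX2 (4292 to 4507 counts), HOXA10 (760 to 772) and HOXA13 (273 to 320) in Ishikawa cells were all at 0 in T-47D cells at 0 h, whereas MSX2 had 5269 to 5617 counts in T-47D cells and 0 to 2 in Ishikawa cells. Of 10 family paralogs 6 could be tested, with 4 higher (GATA5, SOX18, PAX2 and TFAP2B) and 1 lower (SOX7) in T-47D cells. TFAP2B had 42 to 48 counts in T-47D cells at 0 h and 0 in every Ishikawa library.

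Following E2, 5 of the 7 members tested in T-47D cells were called after 2 h, beside 9.30% of all genes tested (4.90% up and 4.40% down). TFAP2C and GATA4 rose, and TFAP2A, FOXA1 and GATA3 fell. GATA4 passed the filter on low counts only through its treated libraries. Its place among the members tested, and among those called up at each time, thus depends on its rise. The median log2 change over the 7 members was -0.11, beside -0.01 over all 15594 genes. At 4 h 5 were called (2 up, 3 down, median -0.08), beside 21.5% of all genes (11.1% up, 10.4% down). After 8 h 4 were called (2 up, 2 down, median -0.06), beside 29.7% of all genes (15.4% up, 14.3% down). The FOXA1 and GATA6 calls after 4 h lay near the threshold (adjusted p = 0.0386 and 0.0476 by edgeR), and the 4 h count was lower in every fit without 1 library. It was 2 in the edgeR fit of all 16 libraries, where FOXA1, GATA6 and TFAP2C were not called (adjusted p = 0.108, 0.285 and 0.0598). Markers moved in the same libraries. Of the 5 epithelial markers KRT8, KRT18 and KRT19 rose at each time and CDH1 fell after 4 h and 8 h, with a summed level of 12517 to 13046 CPM in the treated libraries against 9917 to 10382 CPM at 0 h. Of the 5 stromal markers 4 were tested, none was called after 2 h or 4 h, and COL1A1, DCN and LUM fell after 8 h, with a summed level of 94.5 to 103 CPM at 0 h, 91.8 to 98.0 after 2 h, 85.3 to 92.4 after 4 h and 77.7 to 84.1 after 8 h. The part of these genes in the results of the members was not tested. Counts here are bulk measures, in which fewer cells of a kind and less RNA per cell cannot be told apart.

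GATA4 had the largest relative rise of any member. It had 4 and 0 counts at 0 h, 85 and 65 after 2 h, 72 and 60 after 4 h and 91 and 81 after 8 h. All 6 treated libraries were far above both 0 h libraries, yet the gene stayed low, at 1.15 to 1.87 CPM after E2. The ratio to 0 h was 35.6 after 2 h (95% counting interval 13.6 to 132), 24.4 after 4 h (9.32 to 91.0) and 36.8 after 8 h (14.1 to 137), with adjusted p = 1.25e-06 after 2 h, 5.01e-06 after 4 h and 3.87e-07 after 8 h by edgeR. Since GATA4 was kept for testing only through its treated libraries, these p-values are not support independent of the rise. By fitted log2 change it ranked 9th of 15594 genes after 2 h, a value that depends on the prior count because 0 h replicate 2 had no count. Without 0 h replicate 1 the 0 h level is 0, and GATA4 was then at least 22.6-fold higher after 2 h, 15.6-fold after 4 h and 23.6-fold after 8 h against the floor of 3 counts. In Ishikawa cells GATA4 had 0 counts in all 8 libraries, so any response there was not detectable at this depth. FOXA2, the other member near 0 before E2, had 3 and 0 counts at 0 h in T-47D cells, then 0 and 6, 8 and 9, and 4 and 8 counts at 2, 4 and 8 h, too few to pass the filter on low counts.

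TFAP2A and TFAP2C, paralogs with the same kind of DNA-binding domain, moved in opposite directions in T-47D cells. TFAP2A was at 215 and 224 CPM at 0 h, 133 and 144 after 2 h, 155 and 161 after 4 h and 151 and 156 after 8 h. Every treated library was below both 0 h libraries, and the lowest values were after 2 h. It fell by 0.67 on the log2 scale after 2 h (SE 0.05, adjusted p = 2.36e-08), a 1.59-fold decline, by 0.48 after 4 h (adjusted p = 1.09e-06) and by 0.51 after 8 h (adjusted p = 2.78e-07). TFAP2A-AS1, on the opposite strand, shares 438 exon bases with TFAP2A and was not called, with log2 changes of -0.50, -0.61 and -0.60 at 2, 4 and 8 h. TFAP2A-AS2, also on the opposite strand, shares 941 exon bases and was not among the genes counted. Since the strand setting of the counting is not given in the sources used here, reads over these shared bases cannot be told apart. TFAP2C was at 87.0 and 85.4 CPM at 0 h, 130.2 and 131 after 2 h, 104 and 103 after 4 h and 123 and 124 after 8 h. It rose 1.504-fold after 2 h (log2 change 0.59, SE 0.04, adjusted p = 3.37e-08), was closer to its 0 h level after 4 h (0.26, adjusted p = 3.58e-04) and higher again after 8 h (0.52, adjusted p = 8.40e-08). Between treated times 3.40% of all genes were called from 2 h to 4 h, 16.8% from 2 h to 8 h and 3.42% from 4 h to 8 h. Both steps of TFAP2C passed their own tests, with a log2 difference of -0.33 from 2 h to 4 h (adjusted p = 1.90e-04) and 0.26 from 4 h to 8 h (adjusted p = 0.00245), the second not without replicate 2 after 4 h (adjusted p = 0.0552). With all 16 libraries in 1 fit, the 4 h rise of TFAP2C (adjusted p = 0.0598) and both of its steps (0.0721 and 0.232) were no longer called. TFAP2A rose by 0.19 from 2 h to 4 h (adjusted p = 0.0380), a call lost when any of the 2 h or 4 h libraries was left out and in the fit of all 16 libraries (adjusted p = 0.0973).

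FOXA1 dipped and then rose toward its 0 h level. It was at 431 and 411 CPM at 0 h, 298 and 318 after 2 h, 388 and 381 after 4 h and 381 and 409 after 8 h. All treated libraries were below both 0 h libraries, and both 2 h libraries were below the other 6. The 8 h level came near that at 0 h. The change from 0 h was -0.46 on the log2 scale after 2 h (SE 0.05, adjusted p = 1.14e-06), -0.14 after 4 h (adjusted p = 0.0386) and -0.09 after 8 h (adjusted p = 0.147). The 4 h call was lost in 5 of the 8 fits that left out 1 library each, with adjusted p up to 0.225 without 0 h replicate 1, and in the fit of all 16 libraries (adjusted p = 0.108). The 8 h change passed only without 8 h replicate 2 (adjusted p = 0.0458). From 2 h the level rose by 0.32 to 4 h (adjusted p = 3.38e-04) and by 0.37 to 8 h (adjusted p = 1.91e-05). FOXA1 shares 16 exon bases with TTC6 on the opposite strand.

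GATA3 moved in the same direction as FOXA1 after 2 h but less. It was at 1196 and 1228 CPM at 0 h, 1020 and 1096 after 2 h, 1136 and 1161 after 4 h and 1178 and 1150 after 8 h. All treated libraries were below both 0 h libraries. The log2 change was -0.20 after 2 h (SE 0.04, adjusted p = 8.61e-04), -0.08 after 4 h (adjusted p = 0.117) and -0.06 after 8 h (adjusted p = 0.256). The 2 h call was lost without 2 h replicate 1 (log2 change -0.15, adjusted p = 0.0840) and in the fit of all 16 libraries (adjusted p = 0.0730). The antisense neighbour of GATA3, GATA3-AS1, which shares no exon base with it, fell as well. The log2 changes of GATA3-AS1 were -0.20, -0.29 and -0.31 at 2, 4 and 8 h (adjusted p = 0.0102, 2.61e-04 and 9.07e-05).

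GATA6 declined later and GATA2 was not called. GATA6 was at 11.6 and 11.6 CPM at 0 h, 10.9 and 10.7 after 2 h, 9.36 and 9.84 after 4 h and 8.65 and 9.19 after 8 h, each time point below the one before without overlap. The log2 change was -0.11 after 2 h (adjusted p = 0.560), -0.28 after 4 h (adjusted p = 0.0476) and -0.38 after 8 h (SE 0.10, adjusted p = 0.00676). The 4 h call was lost in all 8 fits without 1 library, with adjusted p from 0.0506 to 0.302, and the 8 h call without 8 h replicate 1 (adjusted p = 0.0505) or in the fit of all 16 libraries (adjusted p = 0.0956). DESeq2 did not call the 4 h change either (adjusted p = 0.0850). GATA2 was at 31.6 and 26.5 CPM at 0 h and between 28.0 and 31.2 CPM in the treated libraries, inside the range of its 0 h replicates. GATA2-AS1, which overlaps its exons by 78 bases on the other strand, fell by 0.28 after 4 h (adjusted p = 0.0117) and by 0.35 after 8 h (adjusted p = 0.00185) on the log2 scale.

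**Figure D2:**
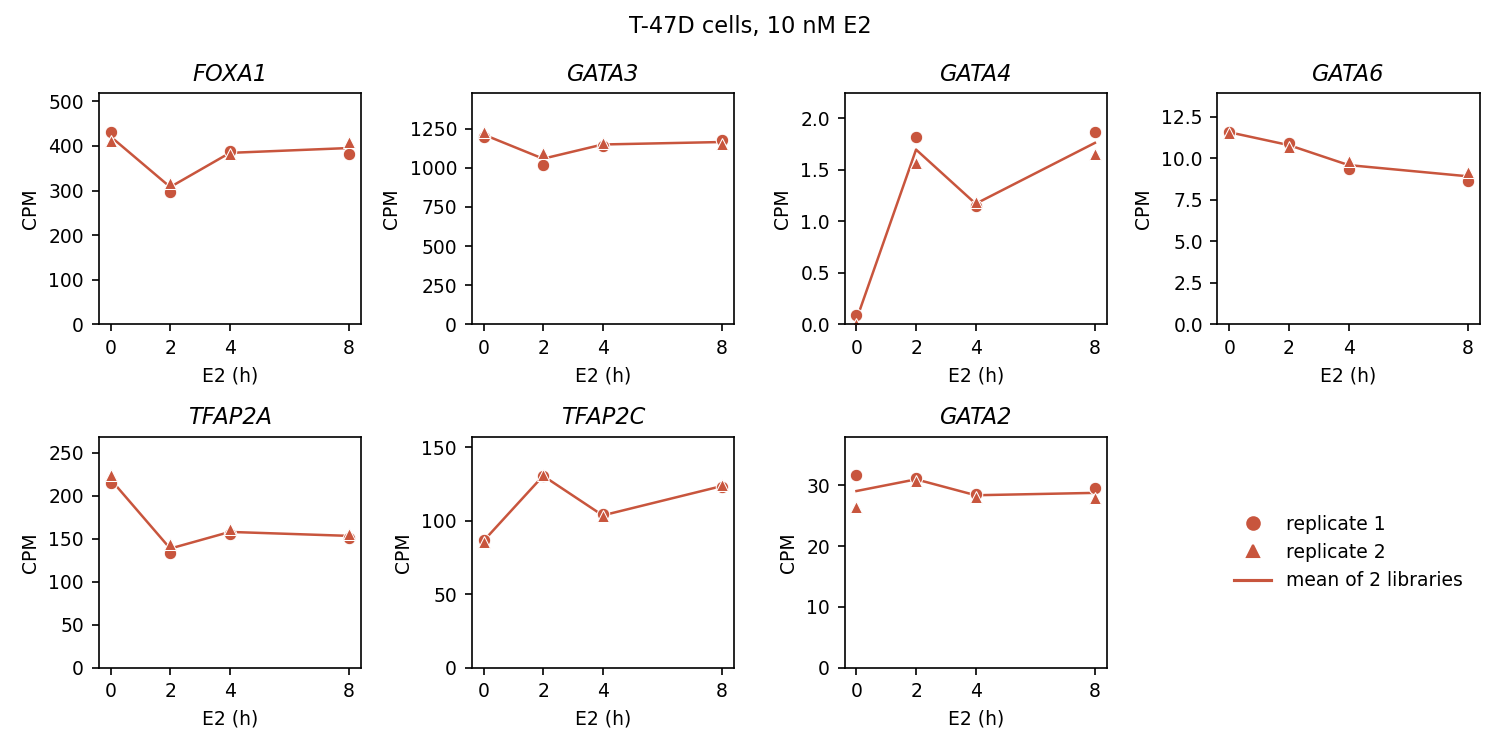
CPM (vertical axes, each starting at 0) against hours of 10 nM E2 for the 7 members tested in T-47D cells, with replicate 1 as circles, replicate 2 as triangles and lines through the means. FOXA1 and GATA3 dip after 2 h, TFAP2A is low from 2 h on, TFAP2C is highest after 2 h and GATA4 leaves the baseline from 2 h.

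In Ishikawa cells 1 of the 7 members tested was called after 2 h (TFAP2C), 1 after 4 h and 1 after 8 h (PAX8 both times), beside 4.35%, 14.3% and 22.1% of all genes tested. In the direction of these calls the shares of all genes were 2.61% (up, 2 h), 6.60% (down, 4 h) and 10.1% (down, 8 h). A single call among 7 members says little beside these shares. The median log2 change of the members was -0.02 after 2 h, 0.03 after 4 h and 0.08 after 8 h, beside -0.00 (2 h), 0.00 (4 h) and -0.01 (8 h) over 15787 genes.

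PAX8 had 270.1 and 319 CPM at 0 h, 250.2 and 249 after 2 h, 189.5 and 212 after 4 h and 195 and 191 after 8 h. All treated libraries were below both 0 h libraries, and those after 4 h and 8 h lay below those after 2 h. The log2 change was -0.23 after 2 h (adjusted p = 0.118, and 0.0115 without 0 h replicate 1), -0.54 after 4 h (SE 0.08, adjusted p = 1.92e-04) and -0.61 after 8 h (SE 0.08, adjusted p = 5.98e-05), a 1.53-fold decline. With 4 h and 8 h as 1 group it was -0.58 (adjusted p = 8.25e-06). PAX8-AS1, which lies on the opposite strand and shares 1651 exon bases with PAX8, fell too, by 0.77, 0.90 and 1.12 on the log2 scale at 2, 4 and 8 h (adjusted p = 0.00929, 0.00165 and 2.31e-04). The strand setting of the counting is not given in the sources used here, so reads over the shared bases cannot be told apart. Markers of several kinds moved in the same libraries. Of 5 stromal markers 3 were tested, and COL1A1 and COL3A1 fell after 4 h and 8 h. The summed level over all 5 was 254 to 277 CPM at 0 h, 215 to 234 after 2 h, 154 to 202 after 4 h and 165 to 186 after 8 h. DCN had at most 2 counts in any Ishikawa library. The epithelial sum was 2867 to 2886 CPM at 0 h, 2574 to 2712 after 4 h and 2536 to 2814 after 8 h. The endothelial sum was 8.05 to 8.36 CPM at 0 h, 5.78 to 6.78 after 4 h and 5.06 to 7.12 after 8 h. The immune sum after 4 h and 8 h overlapped that at 0 h. The part of these markers in the PAX8 result was not tested.

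SOX17, the other Müllerian factor, did not follow PAX8. It was at 42.5 and 43.98 CPM at 0 h, 39.3 and 40.4 after 2 h, 44.2 and 43.9 after 4 h and 44.8 and 46.9 after 8 h. Its log2 change was -0.11 after 2 h (adjusted p = 0.440), 0.03 after 4 h (adjusted p = 0.785) and 0.08 after 8 h (adjusted p = 0.419), with an SE of 0.07 each time, and with 4 h and 8 h as 1 group it was 0.058 (adjusted p = 0.490).

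TFAP2C in Ishikawa cells was at 5.62 and 4.83 CPM at 0 h, 10.7 and 9.31 after 2 h, 5.25 and 7.17 after 4 h and 7.59 and 5.35 after 8 h. Both 2 h libraries exceeded the other 6, and after 4 h and 8 h one library of each was high and the other near 0 h. It rose 1.92-fold after 2 h (log2 change 0.94, SE 0.18, adjusted p = 0.00507), and the changes after 4 h (0.26, adjusted p = 0.382) and 8 h (0.31, adjusted p = 0.243) were not called. As 1 group, 4 h and 8 h gave 0.29 (adjusted p = 0.193). The 2 h call was lost without 0 h replicate 2 (0.84, adjusted p = 0.136) or 2 h replicate 1 (0.84, adjusted p = 0.0671). The late libraries with high TFAP2C, replicate 2 after 4 h and replicate 1 after 8 h, were the closest pair of 4 h and 8 h libraries across labels.

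FOXA1 in Ishikawa cells was at 11.2 and 11.4 CPM at 0 h and between 11.95 and 14.3 CPM in all 6 treated libraries, without overlap. Its log2 change of 0.29 after 2 h (adjusted p = 0.133), 0.12 after 4 h (adjusted p = 0.480) and 0.27 after 8 h (adjusted p = 0.0664) did not pass the test. TFAP2A was at 5.68 to 6.44 CPM in all 8 libraries and GATA2 at 17.1 to 19.4 CPM, with no change from 0 h beyond 0.09 in size on the log2 scale. GATA6 was low and variable, at 30 to 67 counts per library, with log2 changes of 0.07 to 0.53 and SEs of 0.34 to 0.35. With 4 h and 8 h as 1 group the log2 change was 0.20 for FOXA1 (adjusted p = 0.121), -0.047 for TFAP2A (adjusted p = 0.798), -0.083 for GATA2 (adjusted p = 0.440) and 0.45 for GATA6 (adjusted p = 0.282). GATA3 had at most 4 counts and FOXA2 at most 2 in any Ishikawa library.

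**Figure D3:**
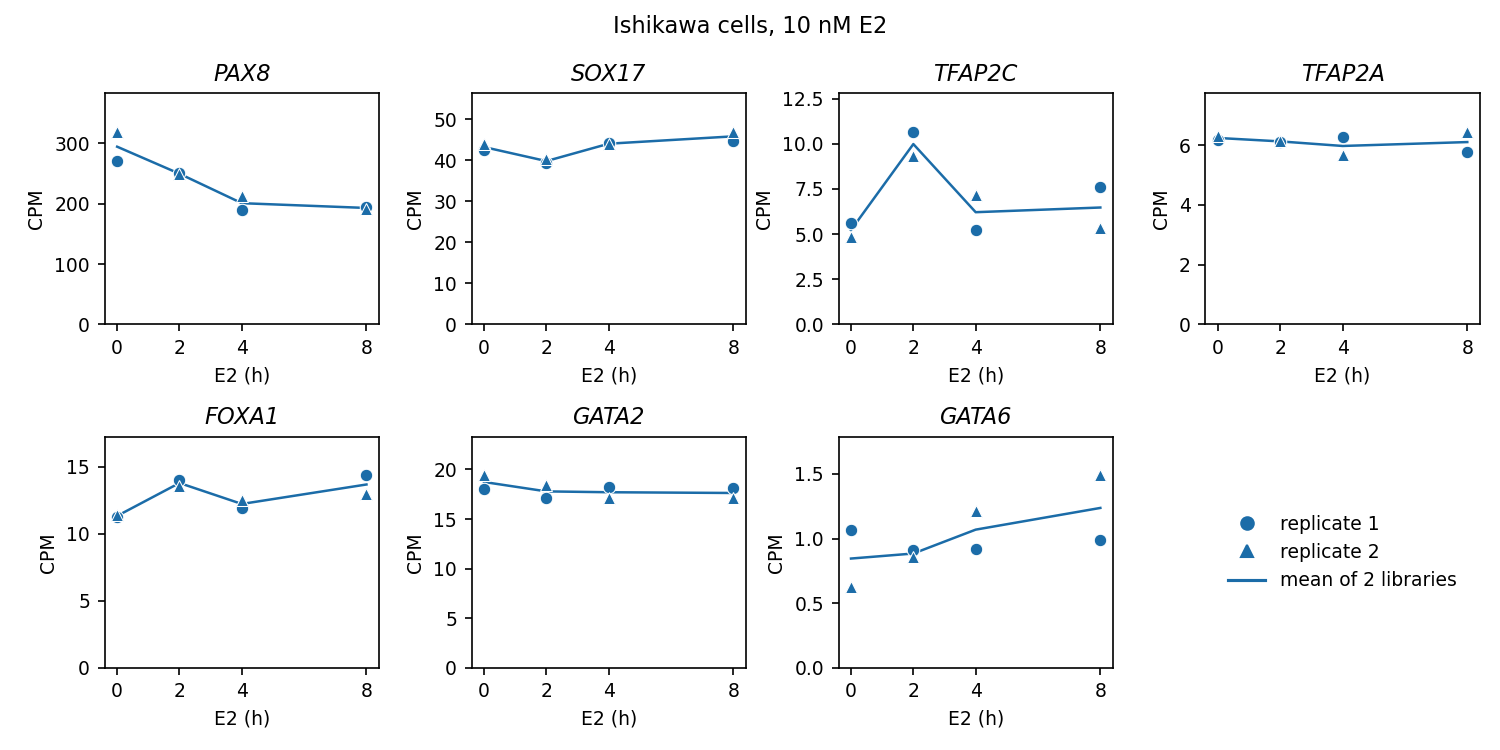
CPM (vertical axes, each starting at 0) against hours of 10 nM E2 for the 7 members tested in Ishikawa cells, with replicate 1 as circles, replicate 2 as triangles and lines through the means. PAX8 declines to 189.5 to 212 CPM, TFAP2C is highest after 2 h, and the replicates of TFAP2C are apart after 4 h and 8 h.

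Whether E2 changed a member differently in both lines was tested as the difference of the 2 changes (T-47D minus Ishikawa) in 1 fit of all 16 libraries, for the 5 members kept in both lines. At 2 h 2 members differed, beside 2.67% of all genes tested, after 4 h 1 differed, beside 6.03%, and after 8 h 2 differed, beside 10.0%. All these differences were negative, as were those of 1.28%, 2.83% and 4.70% of all genes. Over all genes called after 4 h, 53.2% of the differences were positive, and 41.9% with RLE scaling. FOXA1 went down in T-47D cells after 2 h while its Ishikawa values were higher than at 0 h, a difference of -0.73 on the log2 scale (SE 0.09, adjusted p = 1.43e-05), with -0.24 after 4 h (adjusted p = 0.138) and -0.37 after 8 h (SE 0.09, adjusted p = 0.00917). TFAP2A differed at each time, by -0.63 after 2 h (SE 0.10, adjusted p = 5.36e-04), -0.41 after 4 h (SE 0.10, adjusted p = 0.0220) and -0.48 after 8 h (SE 0.10, adjusted p = 0.00393). The 4 h difference of TFAP2A was lost in 3 of 16 fits without 1 library (Ishikawa 4 h replicate 1, T-47D 0 h replicate 2 or T-47D 4 h replicate 1, with adjusted p = 0.115, 0.0668 and 0.0505).

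TFAP2C rose after 2 h in both lines, and no difference between the rises was found (-0.33, SE 0.16, adjusted p = 0.502 after 2 h; 0.01, SE 0.17, after 4 h; 0.19, SE 0.17, after 8 h). An SE of that size leaves room for an unequal response. GATA6 differed by -0.90 after 8 h (SE 0.29, adjusted p = 0.0553), which passed under 4 other settings given below and in 4 of 16 fits without 1 library, and rests on 30 to 67 counts per library in Ishikawa cells. GATA2 differed by at most 0.17 (adjusted p = 0.772 or more). GATA3, GATA4, SOX17 and PAX8 were near 0 in one line, so their difference between lines could not be estimated.

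**Figure D4:**
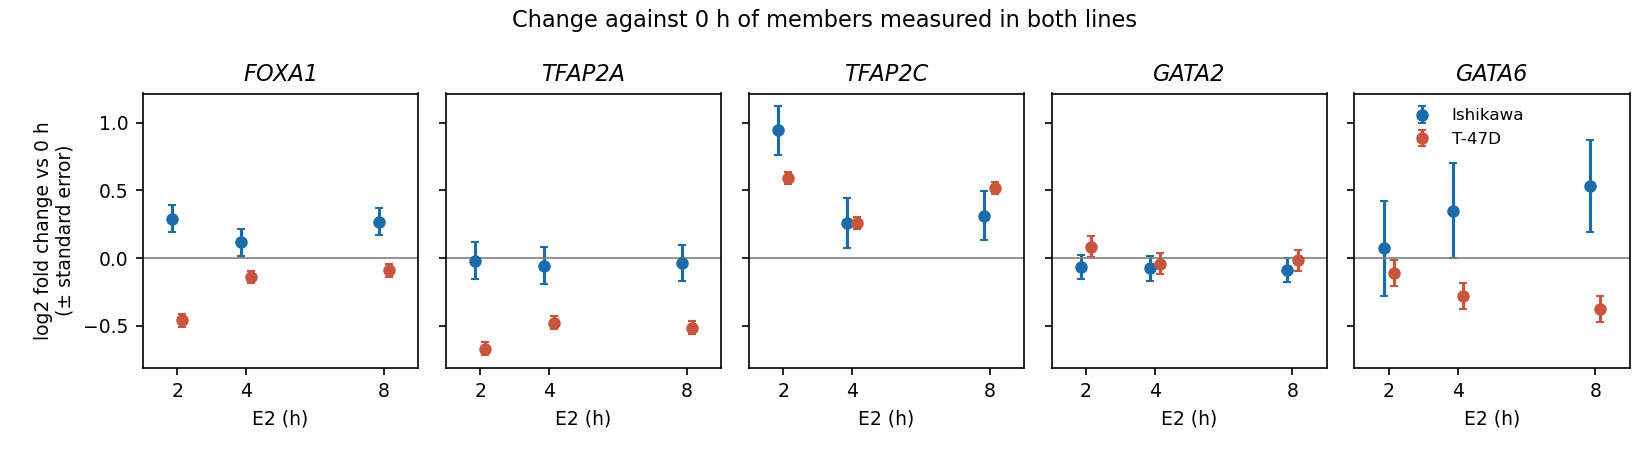
Log2 fold change against 0 h (points) with standard errors (bars) at 2, 4 and 8 h of E2 for the 5 members kept in both lines, Ishikawa in blue and T-47D in red, on 1 shared axis. FOXA1 and TFAP2A separate by line after 2 h, TFAP2C is above 0 in both lines, GATA2 stays near 0 and GATA6 has wide bars in Ishikawa cells.

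Transcripts of cofactors of these proteins are read beside the shares of all genes called, which in T-47D cells were 9.30%, 21.5% and 29.7% and in Ishikawa cells 4.35%, 14.3% and 22.1% for the 3 times in order. Of the 14 cofactors, all tested in T-47D cells, 2 rose and 4 fell after 2 h, 3 rose and 4 fell after 4 h, and 2 rose and 5 fell after 8 h, with medians of -0.02, -0.00 and -0.11 on the log2 scale. In Ishikawa cells 13 were tested, of which 1 rose and 2 fell after 2 h, and 2 rose and 3 fell after 4 h. After 8 h 1 rose and 2 fell, and only this 8 h count was near the share of all genes. CITED2, a coactivator of AP-2 proteins, fell in both lines after 2 h, by 0.75 in T-47D (adjusted p = 4.01e-09) and by 1.21 in Ishikawa cells (adjusted p = 1.79e-07). CITED1, of the same family, went from 2 to 13 counts at 0 h to 49 to 70 counts after 2 h in T-47D cells (log2 change 2.89, adjusted p = 1.61e-04). CITED1 was kept for testing through its treated libraries, so this p-value is not support independent of the rise. ZFPM2, a partner of GATA4, was called after 4 h (1.25, adjusted p = 4.56e-07) and 8 h (1.27, adjusted p = 2.46e-07) in T-47D cells. The corepressor gene TLE3 rose in Ishikawa cells after 2 h (0.73, adjusted p = 4.03e-06) and fell in T-47D cells (-0.24, adjusted p = 0.00296), and this difference passed its own test (-0.95, adjusted p = 1.52e-07). TLE1 fell in T-47D cells after 2 h (-0.53, adjusted p = 9.84e-07).

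Beside the same shares of all genes, luminal factors were called in both lines, and PGR and ZNF217 were among the leading genes of each. In T-47D cells 6 of 16 rose and 3 fell after 2 h (median 0.02), with 6 up and 5 down after 4 h and after 8 h. MYB rose by 2.48 on the log2 scale after 2 h, XBP1 by 1.27 and PGR by 0.87, and ZNF217 fell by 0.67. In Ishikawa cells 2 of 14 tested rose and 5 fell after 2 h (median -0.08), 4 rose and 4 fell after 4 h, and 5 rose and 4 fell after 8 h. PGR rose there by 2.45 and ELF3 by 1.26, while ZNF217 fell by 0.80 and KLF5 by 0.62. Of the uterine patterning factors 2 of 8 rose in Ishikawa cells after 2 h (MSX1, 0.31, and EMX2, 0.26), 2 after 4 h (MSX1 and WT1) and 2 after 8 h (MSX1, 0.36, and WT1, 0.82), and none fell. In T-47D cells MSX2 fell at 2, 4 and 8 h (-0.65, -0.50 and -0.55) and WT1 rose after 8 h (0.70), of 7 tested.

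Few paralogs or noncoding neighbours could be tested. Of all genes, 9.30%, 21.5% and 29.7% were called in T-47D cells after 2, 4 and 8 h. In Ishikawa cells these shares were 4.35%, 14.3% and 22.1%. Among 4 paralogs tested in Ishikawa cells SOX18 rose after 2 h, from 8 to 10 counts to 34 to 38 counts (log2 change 1.93, adjusted p = 0.0196), and after 8 h (1.54). SOX18 was kept for testing there through its treated libraries, so these calls are not support independent of the rise. Among 5 tested in T-47D cells none was called after 2 h, TFAP2B (-0.94) and SOX18 (-0.70) fell after 4 h, and after 8 h SOX18 fell (-0.61) and PAX2 rose (0.90). The change of SOX18 differed between lines after 2 h (-2.57, adjusted p = 0.00105), a difference that rests on its low Ishikawa counts at 0 h. Of 6 noncoding neighbours, 2 were tested in Ishikawa cells, and PAX8-AS1 was called at each time. In T-47D cells 4 were tested. There 1 fell after 2 h (GATA3-AS1), and 2 fell after 4 h and after 8 h (GATA3-AS1 and GATA2-AS1). None of the others was called. With so few genes tested, 1 call moves the share widely.

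The genes whose log2 CPM ran closest to each called member over the 8 libraries of a line are given as a description, without a test, since these libraries share the same treatments. In T-47D cells they were TRPS1 for FOXA1 (Pearson r = 0.974), ZFP36L1 (0.995) and CITED2 (0.992) for TFAP2A, PNMA1 (0.986) and SLC30A1 (0.975) for TFAP2C, ADRA2A (0.998) and KCNK5 (0.992) for GATA4 and MYLK (0.993) for GATA6. For GATA3 the closest was GAS2L2 (0.971), at only 4 to 17 counts, and then GPT2 (0.957). In Ishikawa cells they were CYP1B1 (0.984) for TFAP2C, and TTC31 (0.995) and PDK2 (0.994) for PAX8, whose closest gene, LOC101929767 (0.998), had only 31 to 67 counts.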

How the data were processed

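RNA was measured in 16 libraries, 2 replicates at each of 4 times in 2 lines. Per the labels and methods, the authors made poly(A) directional libraries, aligned reads to hg19 with HISAT2 and deposited raw counts per gene from featureCounts over UCSC Known Genes. Versions, the strand setting and the handling of read pairs are not given in the sources used here. The 10 members and all gene lists were chosen with earlier results of these data known. Counts were tested as deposited with edgeR 4.0.16 (R 4.3.3): filterByExpr, TMM scaling, the quasi-likelihood F test and Benjamini-Hochberg adjustment over all genes tested, called at an adjusted p under 0.05. Each line was fitted alone with time as a factor of 4 levels (15787 genes in Ishikawa, 15594 in T-47D), and differences between lines used 1 fit of all 16 libraries (17090 genes). Of the 10 members 7 passed the filter in each line, 5 of them in both. CPM are TMM-scaled over all 16 libraries, and RPKM divide them by exon-union length in GENCODE 44 on GRCh37. The filter on low counts keeps a gene that is high in 1 group only. Comparisons between treated times were added after the counts were seen.

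All members are named, and list genes are named by the largest called change, up to 4 per list and comparison, and others only where a member's result turns on them. Likeness is Pearson correlation of log2 CPM with a prior count of 2. Ratios of low counts have 95% exact binomial intervals, and the floor is 3 counts per library. Alternatives were DESeq2 1.42.0, other scaling and filters, 4 h and 8 h as 1 group, a replicate block, all 16 libraries in 1 fit, and each library left out in turn. The tests were tried on simulated counts before use. Same-numbered replicates of a line did not deviate together (correlations from -0.115 to 0.0533 in Ishikawa and from -0.0547 to 0.0595 in T-47D), so the numbers were not treated as pairs. Promoter sequences are from RefSeq (GRCh38.p14), and no coordinates of that build were combined with the counts.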

Additional observations from a re-analysis of the deposited data

Results flagged for a closer look

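The effect of E2 on FOXA1 and TFAP2A differed between the lines by a test of the difference itself. For FOXA1 the change in T-47D cells minus that in Ishikawa cells was -0.73 on the log2 scale at 2 h (adjusted p = 1.43e-05) and -0.37 at 8 h (adjusted p = 0.00917). For TFAP2A it was -0.63 at 2 h (adjusted p = 5.36e-04), -0.41 at 4 h (adjusted p = 0.0220) and -0.48 at 8 h (adjusted p = 0.00393), all by edgeR. TFAP2A was at 5.68 to 6.44 CPM in Ishikawa cells and FOXA1 at 11.2 to 14.3 CPM, so both comparisons set a highly expressed gene in one line beside a low one in the other.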

How the results depend on the processing

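Leaving 1 library out leaves a group with a single library, assumed to vary like the others, and gave 0 to 2 called members in Ishikawa cells at 2 h, 3 to 4 in T-47D cells at 4 h and 0 to 1 for the difference between lines at 4 h. The cause of the changes listed here was not tested. With at least 10 counts in every library, 5 members were called between the lines at 0 h and 3 in T-47D cells at 4 h, where GATA4 was no longer tested and GATA6 missed the threshold (adjusted p = 0.0521). In Ishikawa cells at 2 h 2 members were called by DESeq2, without a filter and with all 16 libraries in 1 fit, PAX8 being the second by DESeq2 (-0.23, adjusted p = 0.0497) and without a filter (-0.24, adjusted p = 0.00240) and FOXA1 in the joint fit (0.28, adjusted p = 0.0209). The joint fit gave 2 in Ishikawa cells at 8 h (FOXA1, 0.28, adjusted p = 0.00719) and 2 in T-47D cells at 4 h. With 4 h and 8 h as 1 group, 2 members differed between the lines. The TFAP2C difference between lines at 4 h was 0.011 in the main result and changed sign to -0.026 by DESeq2, -0.0049 without a filter and -0.028 with RLE scaling. The GATA6 difference at 8 h passed by DESeq2, with RLE scaling, without a filter and with at least 10 counts (adjusted p = 0.0176, 0.0460, 0.0163 and 0.0447). With the replicate number as a block, the GATA6 call at 4 h in T-47D cells was lost (adjusted p = 0.0523), leaving 4 called members there. The number of all genes called in Ishikawa cells went from 686 to 1162 at 2 h without a filter and from 2251 to 4055 at 4 h with 4 h and 8 h as 1 group. Leaving out 1 library gave 322 to 1735 (2 h, highest without 0 h replicate 1 and lowest without 2 h replicate 2), 1002 to 2995 (4 h, lowest without 4 h replicate 1) and 1409 to 4234 (8 h, from 3488, lowest without 0 h replicate 2) in Ishikawa cells. In T-47D cells it gave 816 to 1798 (2 h, from 1450, lowest without 2 h replicate 1), 1821 to 3853 (4 h, from 3355, lowest without 4 h replicate 1) and 3427 to 4486 (8 h, from 4629), so the shares of all genes are themselves imprecise. Members under about 100 counts (GATA4, FOXA2 and GATA6 in Ishikawa cells) are limited by depth. Uncalled log2 changes also crossed 0 when 1 library was left out. For GATA2 in T-47D cells they ran from -0.025 to 0.23 at 2 h, -0.15 to 0.097 at 4 h and -0.13 to 0.12 at 8 h, and its difference between lines from -0.075 to 0.18 at 4 h and -0.050 to 0.20 at 8 h. For TFAP2A in Ishikawa cells they ran from -0.037 to 0.0038 at 2 h, -0.13 to 0.0041 at 4 h and -0.13 to 0.053 at 8 h. GATA6 in Ishikawa cells ran from -0.25 to 0.50 at 2 h and its difference between lines from -0.62 to 0.17, and the TFAP2C difference between lines from -0.22 to 0.25 at 4 h and -0.047 to 0.45 at 8 h.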
